A study of Mus musculus with 24 samples.

Results

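KL001, a small molecule that binds and stabilises cryptochromes, was compared with DMSO in fibroblasts whose Cop1 had been knocked down and which received no Dexa. The comparison is defined by sample labels and not by expression values, and was chosen with earlier results of these data known. It uses 6 of the 24 libraries of the series, 3 labelled siCop1 with KL001 and 3 labelled siCop1 with DMSO. All 6 come from wild-type mouse embryonic fibroblasts, connective tissue cells grown from embryos, and all 6 carry siCop1, so the controls carry the knockdown too. The other 18 libraries, 3 in each of 6 groups, hold the same cells with siCTRL, with Dexa or with both, and the name "Dexa" follows the labels. The sources used here give no dose, exposure time or siRNA sequence. The labels number the libraries of a group 1 to 3 without saying that they came from separate cultures. The p-values below therefore measure the spread between libraries of a group, which may be technical. That spread was estimated from all 24 libraries and not from the 6 alone.

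The circadian clock of mammalian cells is a loop in which CLOCK or NPAS2 pairs with BMAL1, binds E-boxes and switches on the Per and Cry genes. The PER and CRY proteins then return to the nucleus and repress that pair, and the nuclear receptors REV-ERB and ROR close a second loop by repressing or activating Bmal1. CRY proteins are removed by F-box ubiquitin ligases, and KL001 slows that removal, so that more repressor stays in place. Cop1 recruits substrates to a CRL4 ubiquitin ligase and so marks transcription factors of the ETS, AP-1 and C/EBP families for degradation. The title of the series concerns cryptochromes and the assembly of this ligase, and the libraries allow the effect of KL001 on transcripts to be measured in cells that have little Cop1 transcript.

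Cop1 transcript, which the table lists as Rfwd2, its older symbol, was at 4.66, 4.78 and 4.997 CPM in the DMSO libraries and 4.33, 5.17 and 5.79 CPM with KL001. The libraries overlapped (log2 change 0.086, SE 0.10, adjusted p = 0.785). In the siCTRL libraries without Dexa the same gene stood at 26.15 to 29.7 CPM, so each of the 6 siCop1 libraries lay below each of those 6. Library totals of the 6 ran from 24524533 to 26451125 counts, at which 1 CPM (a count divided by the TMM-scaled library total, in units of 1e6) stands for 24.8 to 26.8 counts. Fibroblast markers summed to 48710 to 50230 CPM with DMSO and 42400 to 43840 CPM with KL001, a gap that lies mostly in Col1a1, Col1a2 and Col3a1, described further on. Markers of other cell types were low: the sums over the 6 libraries were 2.69 to 4.94 CPM for 9 heart muscle genes, 2.34 to 6.45 CPM for 8 skeletal muscle genes, 1.27 to 2.16 CPM for 6 endothelial genes, 7.56 to 13.5 CPM for 7 macrophage genes, 3.67 to 13.5 CPM for 6 genes of simple epithelium and 9.50 to 16.8 CPM for 6 of squamous epithelium. Myh6 and Myl7 were at 0 counts in all 6. The neural list summed to 234.7 to 249.4 CPM, and DMSO replicate 2 held the highest sum of the muscle and both epithelial lists. None of these other-type markers that could be tested passed with KL001, but 3 that were high in DMSO replicate 2 passed under other settings. Acta1, a skeletal muscle actin gene, was at 1.01, 5.01 and 1.128 CPM in the DMSO libraries and 0.897, 0.811 and 1.27 CPM with KL001 (log2 change -1.26 with adjusted p = 0.148), and passed with DESeq2 (adjusted p = 0.0271), with no filter (adjusted p = 1.17e-06) and without DMSO replicate 1 or 3 (log2 change -1.63 and -1.59, adjusted p = 0.0179 and 0.0370). Actc1, a heart muscle actin gene, and Krt8, a keratin gene, passed with no filter (adjusted p = 3.95e-12 and 1.51e-07). Krt8 was at 0.522, 5.52 and 0.645 CPM in the DMSO libraries and 0.624, 0.8495 and 0.821 CPM with KL001, and Actc1 had 49 counts in DMSO replicate 2, 1 in KL001 replicate 2 and 0 in the other 4 libraries.

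KL001 changed 604 of 14772 genes tested after Cop1 knockdown, 4.09% of them. Here and below "changed", "rose" and "fell" mean an adjusted p under 0.05 in the two-sided quasi-likelihood test of edgeR, adjusted by Benjamini-Hochberg over all genes tested. Of these, 261 rose (1.77% of genes tested) and 343 fell (2.32%). These shares are the background for the counts of list members below. The changes were mostly small, with a median absolute log2 change of 0.23. Past 1.5-fold there were 64 genes, of which 10 rose and 54 fell, and 13 passed 2-fold. The 3 KL001 libraries lay wholly above or below the 3 DMSO libraries for 602 of the 604, and for 3362 of all genes tested, 22.8%. Lack of overlap, given below for many genes, therefore does not by itself mark a change. The median log2 change over all genes tested was 0.0027. The count depended on the fit: one on the compared groups gave 933 genes and a correction for transcript length and GC content gave 958, of which 594 and 596 were among the 604.

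**Figure D1:**
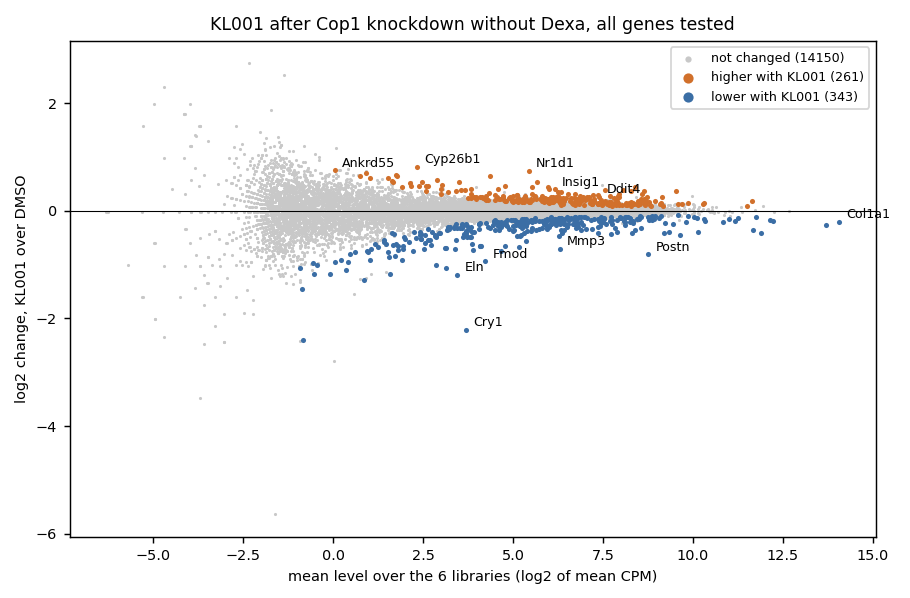
Each point is a gene, placed by the log2 of its mean CPM over the 6 libraries (horizontal) and its log2 change with KL001 (vertical), with 18 genes that had 0 counts in a group left out. The 343 genes that fell reach much further from 0 than the 261 that rose, and Cry1 lies lowest among the labelled genes at -2.22.

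Among the cryptochromes and their F-box ligases, both cryptochrome genes fell, 2 of 4 members. Cry1, which encodes a core repressor of the clock and a protein that KL001 binds, was at 23.1, 20.3 and 20.3 CPM in the DMSO libraries and 4.72, 4.44 and 4.555 CPM with KL001. All KL001 libraries lay far below all DMSO libraries, at a fitted ratio of 0.215 to DMSO (log2 change -2.22, SE 0.073, adjusted p = 8.19e-19). Cry2, the other cryptochrome, was at 35.7, 33.9 and 37.6 CPM in the DMSO libraries and 27.2, 27.8 and 28.04 CPM with KL001. Its groups also stood apart, with a smaller fall (log2 change -0.37, SE 0.048, adjusted p = 5.12e-06). Fbxl21, an F-box ligase gene, was at 0.484 to 1.05 CPM with overlapping libraries.

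Of the 5 period and casein kinase genes, Per1 and Per2 fell. Per2, the repressor that partners cryptochromes, was at 11.6, 11.8 and 12.05 CPM in the DMSO libraries and 6.16, 5.75 and 5.08 CPM with KL001. Every KL001 library was below the lowest DMSO library by more than the spread in either group (log2 change -1.06, SE 0.11, adjusted p = 1.06e-07). Per1 was at 41.9, 40.15 and 41.3 CPM in the DMSO libraries and 34.9, 36.5 and 35.6 CPM with KL001, a clear separation of small size (log2 change -0.20, SE 0.039, adjusted p = 0.00106). Per3 was at 38.3, 40.7 and 40.6 CPM in the DMSO libraries and 34, 40.1 and 33.5 CPM with KL001, with KL001 replicate 2 inside the DMSO range (log2 change -0.15, SE 0.065, adjusted p = 0.244). Without that library Per3 passed, at a log2 change of -0.24 (adjusted p = 0.0356). Csnk1d and Csnk1e, kinases that phosphorylate PER proteins, had log2 changes of -0.0034 and -0.021 and overlapping libraries.

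The E-box activators gave 2 falls among 4 genes. Arntl, the gene of BMAL1, was at 32.6, 32.3 and 35.1 CPM in the DMSO libraries and 19.9, 21.1 and 22.3 CPM with KL001. The highest KL001 library was well below the lowest DMSO library (log2 change -0.66, SE 0.064, adjusted p = 3.23e-08). Npas2, which can stand in for CLOCK, was at 3.95, 4.78 and 3.67 CPM in the DMSO libraries and 1.95, 1.815 and 1.72 CPM with KL001. It too separated fully (log2 change -1.18, SE 0.15, adjusted p = 4.2e-06). Clock was at 85.4, 87.9 and 88.1 CPM in the DMSO libraries and 89.85, 97.6 and 82.4 CPM with KL001, and its DMSO values lay inside the KL001 range (log2 change 0.046, SE 0.0865, adjusted p = 0.879). Arntl2, a paralog of Arntl, had a log2 change of 0.16 (adjusted p = 0.330).

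REV-ERB genes moved the other way: 2 of the 5 genes of the REV-ERB and ROR list rose and none fell. Nr1d1, which encodes REV-ERB alpha, a repressor of Arntl and Npas2, was at 32.8, 32.3 and 31.6 CPM in the DMSO libraries and 55.96, 54.1 and 52.05 CPM with KL001. No library of either group came near the other group (log2 change 0.75, SE 0.046, adjusted p = 4e-12). Nr1d2, which encodes REV-ERB beta, was at 51.8, 51.8 and 54.9 CPM in the DMSO libraries and 71.4, 74.3 and 70.15 CPM with KL001 (log2 change 0.45, SE 0.056, adjusted p = 4.2e-06). Rora, an activator that competes with them, had a log2 change of -0.059 (adjusted p = 0.847), and Rorb reached at most 0.583 CPM in any of the 6 libraries.

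Clock outputs fell in 4 of 9 cases and rose in none, with a list median of -0.18. Dbp, a PAR bZIP transcription factor driven directly by E-boxes, was at 27.5, 27.1 and 28.25 CPM in the DMSO libraries and 20.7, 19.7 and 23.97 CPM with KL001. Its lowest DMSO library exceeded the highest KL001 library (log2 change -0.36, SE 0.069, adjusted p = 0.000993). Nfil3, a repressor that competes with the PAR bZIP factors for the D-box, was at 41.2, 42.3 and 41.7 CPM in the DMSO libraries and 35.3, 37.15 and 38.2 CPM with KL001 (log2 change -0.18, SE 0.039, adjusted p = 0.00444). It lost its call without KL001 replicate 1 (adjusted p = 0.0537). Tef, the PAR bZIP relative of Dbp, was at 184, 176 and 183 CPM in the DMSO libraries and 168, 168.5 and 167 CPM with KL001. Its groups did not overlap and the change was the smallest of the 4 (log2 change -0.11, SE 0.030, adjusted p = 0.0302). Bhlhe40, an E-box repressor, was at 33.3, 37.1 and 36.03 CPM in the DMSO libraries and 30.3, 31.4 and 32.3 CPM with KL001 (log2 change -0.18, SE 0.048, adjusted p = 0.02755). Tef lost its call when KL001 replicate 1, 2 or 3 or DMSO replicate 1 or 3 (adjusted p 0.0837 to 0.148) was left out, and Bhlhe40 when KL001 replicate 1 or 2 or DMSO replicate 2 or 3 (adjusted p 0.0831 to 0.180) was. Both also lost their calls with no filter (adjusted p = 0.148 for Tef and 0.0514 for Bhlhe40). The list count was 2 without DMSO replicate 3, without KL001 replicate 2 or with no filter on low counts, and 1 without KL001 replicate 1. Usp2 and Hlf were lower in every KL001 library at log2 changes of -0.24 (adjusted p = 0.117) and -0.38 (adjusted p = 0.471), and Bhlhe41, Ciart and Wee1 lay between -0.11 and -0.0365 with overlapping libraries. Such separation, in either direction, was seen for 22.8% of all genes tested.

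**Figure D2:**
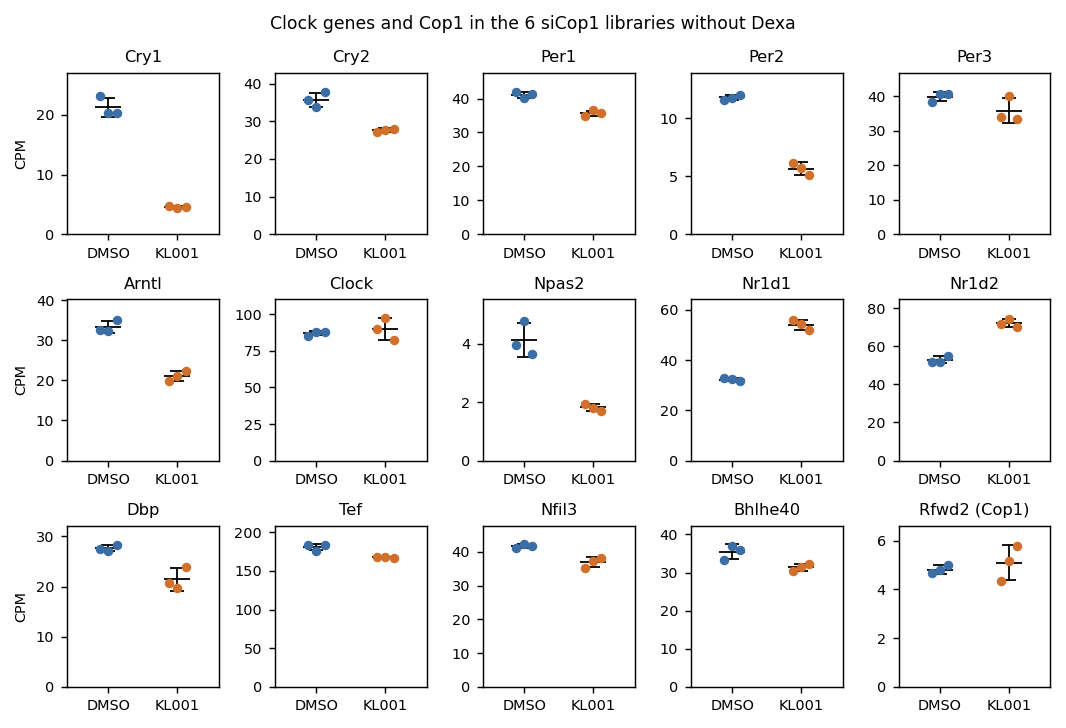
Points are the CPM of single libraries, with DMSO in blue and KL001 in orange, and black bars give the mean ± SD of each group of 3; each vertical axis starts at 0. Cry1, Per2, Arntl and Npas2 sit far lower with KL001, Nr1d1 and Nr1d2 sit higher, and Clock and Rfwd2 overlap.

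The E-box is an element through which some clock genes are tied to the loop. A pair of promoters that hold an E-box is shown because Cry1 and Per1 both fell. In RefSeq's promoter table for GRCm38.p6, 21 of the 27 genes of the clock lists had an entry. The letters CACGTG, which read the same on both strands, occurred in the 250 bases before the start of 5 of these 21 (Cry1, Per1, Tef, Bhlhe41 and Ciart) and in 6.02% of all 32851 promoters of that length. A ROR element core, TAGGTCA on either strand, occurred in 1 of the 21 (Nfil3) and in 2.23% of all promoters. A gene was counted if any of its promoter entries held the letters, whereas the share of all promoters counts single entries. The gene counts and these shares are therefore unlike measures. Cry1, Per1 and Tef fell with KL001 while Bhlhe41 and Ciart did not pass the test. The upstream bases of Cry1 (chr10:85185055-85185304, minus strand) and of Per1 (chr11:69098699-69098948, plus strand) are written 5′ to 3′ in the direction of transcription, in lower case with the E-box in capitals.
Cry1: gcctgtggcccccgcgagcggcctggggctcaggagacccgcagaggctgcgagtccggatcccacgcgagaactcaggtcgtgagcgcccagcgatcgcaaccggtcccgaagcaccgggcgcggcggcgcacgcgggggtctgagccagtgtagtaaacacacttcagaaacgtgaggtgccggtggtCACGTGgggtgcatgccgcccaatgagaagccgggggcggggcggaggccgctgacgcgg
Per1: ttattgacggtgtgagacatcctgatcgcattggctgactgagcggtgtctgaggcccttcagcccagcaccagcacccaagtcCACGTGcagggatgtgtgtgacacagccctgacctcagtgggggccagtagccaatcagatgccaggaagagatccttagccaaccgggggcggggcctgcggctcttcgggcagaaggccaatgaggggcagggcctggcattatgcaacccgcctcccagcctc
The Cry1 E-box begins 60 bases and the Per1 E-box 166 bases before the annotated start. A match describes these letters and does not show that a factor binds there.

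Among 10 genes for the subunits and Tribbles adaptors of the Cop1 ligase, 1 rose and 1 fell, and both were Tribbles adaptors. Of all genes tested, 1.77% rose and 2.32% fell. Trib2, a pseudokinase adaptor that brings C/EBP alpha to Cop1, was at 66.96, 69.7 and 68.96 CPM in the DMSO libraries and 54.75, 52.98 and 54.03 CPM with KL001. Its KL001 libraries were all lower (log2 change -0.35, SE 0.041, adjusted p = 1.25e-06). Trib3, a family member induced by amino acid stress, was at 103, 106 and 107 CPM in the DMSO libraries and 129, 122 and 129 CPM with KL001. Here the KL001 libraries were all higher (log2 change 0.27, SE 0.037, adjusted p = 1.34e-05). Trib1 did not pass (log2 change 0.088, SE 0.0625, adjusted p = 0.585). Det1, Dda1, Ddb1, Cul4a, Cul4b and Rbx1, which make up the body of the ligase, had log2 changes from -0.11 (Rbx1) to 0.039 (Det1), and none passed the test.

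Of 10 transcription factors described as Cop1 substrates, only Etv4, an ETS factor, passed the test, beside 4.09% of all genes tested. It was at 28.9, 28.2 and 25.9 CPM in the DMSO libraries and 23.3, 22.3 and 24.1 CPM with KL001, and its groups did not overlap (log2 change -0.25, SE 0.055, adjusted p = 0.00444). Etv1 and Etv5, its close relatives, were lower in every KL001 library at log2 changes of -0.51 (adjusted p = 0.125) and -0.19 (adjusted p = 0.0775). Jun was at 121, 125 and 123 CPM in the DMSO libraries and 119, 115 and 117 CPM with KL001, again without overlap (log2 change -0.070, SE 0.036, adjusted p = 0.385). Groups without overlap were seen for 22.8% of all genes tested. Ets1, Ets2, Cebpa, Trp53, Foxo1 and Crtc2 had log2 changes between -0.12 and 0.091. With the length and GC correction the count of the list was 2. These are transcript levels, and the protein amount on which Cop1 acts was not measured.

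Among 19 targets of ETS and AP-1 factors, both genes that passed were secreted collagen-degrading or stromelysin proteases, and both fell. Of all genes tested, 4.09% passed. Mmp3 was at 99.9, 96.1 and 98.1 CPM in the DMSO libraries and 59.1, 59.5 and 61.2 CPM with KL001. The groups were separated by a gap larger than either group's range (log2 change -0.71, SE 0.077, adjusted p = 2.44e-06). Mmp13, a collagenase, was at 2.57, 2.60 and 2.58 CPM in the DMSO libraries and 0.936, 0.965 and 1.27 CPM with KL001. It separated at low counts (log2 change -1.29, SE 0.31, adjusted p = 0.0108) and lost its call without KL001 replicate 1 or 2 (adjusted p 0.0632 to 0.0662), and the list count was 1 without KL001 replicate 2. Mmp9 and Mmp10 were lower in every KL001 library at -0.64 (adjusted p = 0.09965) and -0.95 (adjusted p = 0.184) on the log2 scale. That pattern, or its reverse, held for 22.8% of all genes tested. The MAPK feedback genes of the list, such as Dusp6, Spry2, Spry4 and Spred1, and the growth genes Ccnd1, Hmga2, Fosl1 and Egr1 did not pass, with log2 changes of -0.081, -0.038, -0.22, -0.026, 0.0505, 0.029, 0.036 and -0.079. Spry4 passed without KL001 replicate 1, at -0.32 (adjusted p = 0.0460).

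Of 22 elastic fibre genes, 9 fell, 2 rose and 11 did not pass, with a list median of -0.04. Eln, the gene of elastin, was at 15.2, 14.5 and 16.04 CPM in the DMSO libraries and 7.25, 5.87 and 6.91 CPM with KL001. Its KL001 values were below its lowest DMSO value throughout (log2 change -1.19, SE 0.10, adjusted p = 4.04e-09). Mfap4, a microfibril-associated protein, was at 2.65, 2.33 and 2.94 CPM in the DMSO libraries and 1.44, 1.04 and 1.72 CPM with KL001 (log2 change -0.91, SE 0.19, adjusted p = 0.002335). Ltbp2, a latent TGF-beta binding protein family member of microfibrils, was at 134, 130 and 133.5 CPM in the DMSO libraries and 102, 103 and 104 CPM with KL001 (log2 change -0.36, SE 0.033, adjusted p = 8.53e-09). Loxl3, which crosslinks collagen and elastin, was at 122, 124 and 123 CPM in the DMSO libraries and 100, 97.1 and 101 CPM with KL001 (log2 change -0.31, SE 0.034, adjusted p = 3.21e-07). These 4 genes separated without overlap. Mfap2, Lox, Emilin1, Fbln5 and Efemp2 also fell, by 0.43, 0.19, 0.17, 0.15 and 0.15 on the log2 scale. Mfap2 lost its call without KL001 replicate 3 or DMSO replicate 2 (adjusted p 0.0809 to 0.0941) and Efemp2 without KL001 replicate 2 (adjusted p = 0.0610). The fibrillin genes Fbn1 and Fbn2 did not pass (log2 change 0.064 with adjusted p = 0.742 and -0.23 with adjusted p = 0.109), though Fbn2 passed with DESeq2 (adjusted p = 0.0238), with no filter, with the length and GC correction and without KL001 replicate 2, at -0.31 (adjusted p = 0.0314). Emilin2 and Loxl4 rose, at log2 changes of 0.26 (adjusted p = 3.2e-05) and 0.23 (adjusted p = 0.00267).

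Collagen chains fell in 12 of 20 cases, 1 rose and 7 did not pass, and the list median was -0.16. Col3a1, a chain of fibrils in soft tissue, was at 4209, 4305 and 4504 CPM in the DMSO libraries and 3236, 3313 and 3216 CPM with KL001. The KL001 libraries were all lower by more than the range of either group (log2 change -0.41, SE 0.036, adjusted p = 8.53e-09). Col1a2, a chain of type I collagen, was at 14350, 14290 and 14750 CPM in the DMSO libraries and 12110, 12070 and 11880 CPM with KL001 (log2 change -0.27, SE 0.025, adjusted p = 1.07e-08). Col1a1, its partner chain, was at 18270, 17810 and 18640 CPM in the DMSO libraries and 16300, 15670 and 15360 CPM with KL001 (log2 change -0.21, SE 0.044, adjusted p = 0.00554). Both type I chains fell without overlap between the groups. Col8a2 and Col15a1 had the largest falls of the list at -0.92 (adjusted p = 0.000485) and -1.17 (adjusted p = 0.00442), at means of 4.94 and 1.30 CPM with DMSO. Col11a1, Col12a1, Col6a2, Col6a1, Col16a1, Col5a3 and Col5a2 fell by 0.40, 0.39, 0.18, 0.16, 0.16, 0.14 and 0.12. The small falls of Col5a3 and Col5a2 were lost without KL001 replicate 1, 2 or 3 or DMSO replicate 1, 2 or 3 (adjusted p 0.0618 to 0.236) and without KL001 replicate 3 or DMSO replicate 1 or 3 (adjusted p 0.0654 to 0.137), respectively, and the fall of Col12a1 in the fit on the compared groups (adjusted p = 0.0517). Col5a3 also lost its call with no filter, with the replicate block and with the length and GC correction with or without the block (adjusted p 0.0552 to 0.11). Col18a1, a basement membrane collagen, rose (log2 change 0.18, SE 0.038, adjusted p = 0.00433), whereas the basement membrane chains Col4a1 and Col4a2 did not pass (log2 change -0.029 with adjusted p = 0.742 and -0.062 with adjusted p = 0.286). Col1a1, Col1a2 and Col3a1 were also the 3 of 10 fibroblast markers that fell, and in bulk RNA fewer cells of a type and less RNA per cell cannot be told apart. The other 7 fibroblast markers did not pass the test. Thy1, a surface glycoprotein, was at 346, 335 and 338.5 CPM in the DMSO libraries and 319, 304 and 320.5 CPM with KL001, lower in every KL001 library (log2 change -0.11, SE 0.038, adjusted p = 0.0975), and passed with the replicate block, in the fit on the compared groups and with the length and GC correction with or without the block (adjusted p 0.00768 to 0.0473). Dcn, decorin, had a log2 change of -0.25 (adjusted p = 0.546). Vim was at 4865, 5013 and 4878 CPM in the DMSO libraries and 4837, 4847 and 4815 CPM with KL001 (log2 change -0.0255 with adjusted p = 0.728) and Pdgfrb at 447, 438 and 468 CPM in the DMSO libraries and 441, 455 and 432 CPM with KL001 (log2 change -0.026 with adjusted p = 0.845).

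Contractile genes of smooth muscle, which fibroblasts express when they become myofibroblast-like, fell in 5 of 13 tested members of a list of 14. Acta2, smooth muscle actin, was at 1967, 1965 and 1938 CPM in the DMSO libraries and 1692, 1676 and 1721 CPM with KL001. Every KL001 library was lower (log2 change -0.21, SE 0.026, adjusted p = 3.15e-06). Cnn1, calponin, was at 122, 118 and 118 CPM in the DMSO libraries and 95.5, 95.5 and 94.95 CPM with KL001, the largest fall of the list among genes that passed (log2 change -0.32, SE 0.040, adjusted p = 2.87e-06). Myl9, Actg2 and Tagln fell by 0.23, 0.20 and 0.16, and the call of Actg2 was lost without KL001 replicate 1 or 3 or DMSO replicate 1 or 2 (adjusted p 0.0519 to 0.132). Tpm1, Smtn and Lmod1 did not pass and had log2 changes of 0.037, -0.024 and -0.10, and Myocd was not tested for want of counts.

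In the list of TGF-beta and CCN matricellular genes, 5 of 18 fell and 1 rose. Postn, periostin, a matrix protein of wound and ligament tissue, was at 527, 546.5 and 572 CPM in the DMSO libraries and 302, 323 and 316 CPM with KL001. The lowest DMSO library stood far above the highest KL001 library (log2 change -0.81, SE 0.047, adjusted p = 3.14e-11). Ctgf, also known as Ccn2, a matricellular target of TGF-beta and YAP, was at 190, 189 and 180 CPM in the DMSO libraries and 141.5, 134 and 143 CPM with KL001 (log2 change -0.42, SE 0.037, adjusted p = 5.18e-09). Thbs1, thrombospondin, was at 3703, 3572 and 3709 CPM in the DMSO libraries and 2865, 2883 and 2778 CPM with KL001 (log2 change -0.37, SE 0.070, adjusted p = 0.00347). In each of these genes all KL001 libraries were below all DMSO libraries. Tgfbi fell by 0.35 and Tgfb3, a ligand, by 0.25. The other ligands and the receptors did not pass, with log2 changes of -0.089 for Tgfb1, -0.077 for Tgfb2, -0.037 for Tgfbr1 and 0.11 for Tgfbr2. Smad7, a common readout of the pathway, did not pass either (log2 change 0.075 with adjusted p = 0.752). Wisp2, also known as Ccn5, rose from 227, 214 and 215 CPM to 277, 269.5 and 270 CPM (log2 change 0.31, SE 0.036, adjusted p = 5.62e-07).

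Sterol and fatty acid synthesis moved in a single direction: 21 of 24 genes rose, none fell, and the list median was 0.26 against 0.0027 over all genes tested. These genes are targets of the SREBP transcription factors, which are activated when sterols run low. Insig1, which holds SREBP in the endoplasmic reticulum, was at 61.85, 64.2 and 58.7 CPM in the DMSO libraries and 82.6, 79.5 and 81.9 CPM with KL001. The lowest KL001 library exceeded the highest DMSO library by a wide margin (log2 change 0.40, SE 0.035, adjusted p = 5.12e-09). Msmo1, a C4-methylsterol oxidase, was at 236, 222 and 233 CPM in the DMSO libraries and 299, 297 and 305 CPM with KL001 (log2 change 0.38, SE 0.030, adjusted p = 8.14e-10). Cyp51, the lanosterol demethylase, was at 276, 269 and 275 CPM in the DMSO libraries and 356, 348 and 353.5 CPM with KL001 (log2 change 0.37, SE 0.029, adjusted p = 8.14e-10). The earlier steps of the pathway rose alongside these later ones. Hmgcs1, the synthase that makes HMG-CoA, was at 355, 348 and 348 CPM in the DMSO libraries and 446, 462 and 438 CPM with KL001 (log2 change 0.36, SE 0.039, adjusted p = 3.01e-07). Sqle, squalene epoxidase, was at 342, 345 and 333 CPM in the DMSO libraries and 426.5, 412 and 422 CPM with KL001 (log2 change 0.305, SE 0.027, adjusted p = 6.25e-09). The separation held in these 5 genes. Between these steps, Fdps and Idi1 had the largest rises of the list at 0.45 (adjusted p = 1.98e-06) and 0.51 (adjusted p = 0.0129) among the genes that passed. Idi1 lost its call without KL001 replicate 2 or DMSO replicate 1 or 3 (adjusted p 0.0673 to 0.0973). The fatty acid genes Fasn, Scd1, Scd2 and Acly rose by 0.25, 0.22, 0.18 and 0.14. Srebf2, the sterol-regulating SREBP gene, rose at a log2 change of 0.13 (adjusted p = 0.0321), a call lost without KL001 replicate 1 or 2 or DMSO replicate 1, 2 or 3 (adjusted p 0.0586 to 0.192), as that of Acly was without KL001 replicate 1 or DMSO replicate 1 (adjusted p 0.0511 to 0.0520). Srebf1 and Acaca did not pass, with log2 changes of 0.073 (adjusted p = 0.288) and 0.15 (adjusted p = 0.107).

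Of the 24 sterol and fatty acid genes, 14 had an entry in the RefSeq promoter table, and 1 of them, Hmgcs1, held the sterol element letters TCACNCCAC on either strand within 250 bases before its start, as did 1.05% of all 32851 promoters. Its upstream bases (chr13:119690101-119690350, GRCm38.p6, plus strand) are shown because the gene rose and these letters are a spelling of the sterol regulatory element that SREBP binds, with the match in capitals beginning 137 bases before the start.
Hmgcs1: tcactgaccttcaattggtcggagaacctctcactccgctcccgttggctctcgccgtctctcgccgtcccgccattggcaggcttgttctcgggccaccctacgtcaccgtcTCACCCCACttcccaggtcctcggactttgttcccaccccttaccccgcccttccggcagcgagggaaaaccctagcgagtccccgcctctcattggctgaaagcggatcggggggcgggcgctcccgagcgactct
The same letters were not found in the windows of the other 13, which says only that this spelling does not occur there. As for the E-box, a gene was counted if any of its entries matched, whereas the share of all promoters counts single entries.

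Stress genes rose in part. Of 18 genes of the unfolded protein and ATF4 responses, 8 rose and none fell. Slc7a11, the cystine transporter, was at 40.1, 39.1 and 39.1 CPM in the DMSO libraries and 53.3, 56.6 and 50.1 CPM with KL001. Its groups stood well apart (log2 change 0.435, SE 0.075, adjusted p = 0.000567). Atf4, a transcription factor of the integrated stress response, was at 528.5, 520 and 518 CPM in the DMSO libraries and 573, 579 and 575 CPM with KL001 (log2 change 0.14, SE 0.029, adjusted p = 0.00227). Psat1, of serine synthesis, was at 392, 382 and 391 CPM in the DMSO libraries and 447, 438 and 442 CPM with KL001 (log2 change 0.19, SE 0.026, adjusted p = 1.03e-05). Atf3, Chac1, Herpud1, Shmt2 and Asns rose by 0.28, 0.19, 0.18, 0.17 and 0.15, and Atf3 lost its call without KL001 replicate 3 or DMSO replicate 3 (adjusted p 0.0679 to 0.0754). The chaperone genes of the unfolded protein response did not pass: Hspa5 had a log2 change of -0.035 (adjusted p = 0.656), Hsp90b1 of -0.027 (adjusted p = 0.736) and Pdia4 of -0.10 (adjusted p = 0.1225). Ddit3, a death-promoting target of ATF4, had 0.045 (adjusted p = 0.651).

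Of 18 p53 targets, 6 rose and none fell. Eda2r, a death receptor, was at 11.25, 12.2 and 13.5 CPM in the DMSO libraries and 15.6, 17.7 and 15.4 CPM with KL001 (log2 change 0.40, SE 0.081, adjusted p = 0.00197). Sesn2 and Tnfrsf10b rose by 0.21 and 0.19, Gadd45a by 0.23, and Ccng1 and Plk2 by 0.14 and 0.13. Cdkn1a and Mdm2, common readouts of p53, did not pass (log2 change -0.029 with adjusted p = 0.848 and 0.051 with adjusted p = 0.526). Gadd45a lost its call without KL001 replicate 1 or 3 or DMSO replicate 2 or 3 (adjusted p 0.0519 to 0.0713), Plk2 without KL001 replicate 2 or 3 or DMSO replicate 1, 2 or 3 (adjusted p 0.0527 to 0.196) and Ccng1 without KL001 replicate 1 or 2 or DMSO replicate 1, 2 or 3 (adjusted p 0.0762 to 0.322). Plk2 also lost its call with no filter (adjusted p = 0.0714) and Ccng1 with RLE scaling (adjusted p = 0.0597). The list count was 3 without DMSO replicate 2 and 3 without DMSO replicate 3.

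In the absence of Dexa, 4 of 17 glucocorticoid response genes rose and 1 fell, beside 1.77% and 2.32% of all genes tested. Angptl4, an inhibitor of lipoprotein lipase, was at 42.7, 39.6 and 42.1 CPM in the DMSO libraries and 59.9, 57.1 and 63.6 CPM with KL001. Its groups were clearly apart (log2 change 0.54, SE 0.047, adjusted p = 4.58e-09). Ddit4, an inhibitor of mTORC1, was at 156, 156 and 150 CPM in the DMSO libraries and 193, 170 and 188 CPM with KL001 (log2 change 0.25, SE 0.0435, adjusted p = 0.000305). Pdk4 and Mt2 rose too (log2 change 0.62 with adjusted p = 0.00677 and 0.53 with adjusted p = 0.0131). Pdk4 lost its call without KL001 replicate 3 or DMSO replicate 3 (adjusted p 0.0590 to 0.0819), and Mt2 without KL001 replicate 3 or DMSO replicate 1 or 3 (adjusted p 0.0593 to 0.0814). Fkbp5, a sensitive target of the receptor, fell (log2 change -0.13, SE 0.037, adjusted p = 0.0403), a call lost without KL001 replicate 2 or 3 or DMSO replicate 1, 2 or 3 (adjusted p 0.0655 to 0.258) and in the fit on the compared groups (adjusted p = 0.0578). Fkbp5 also lost its call with no filter (adjusted p = 0.124). Tsc22d3, Sgk1, Klf9 and Nr3c1, the gene of the receptor itself, had log2 changes of -0.033, 0.018, -0.0715 and 0.088 and did not pass. The list count of 5 was 3 without DMSO replicate 1 and 2 without DMSO replicate 3 or KL001 replicate 3.

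Inflammatory lists moved in few members, and 4.09% of all genes tested changed. Of 18 interferon-stimulated genes tested out of 20, Ifit3 and Ifit2 rose. Ifit3 was at 5.925, 5.71 and 6.045 CPM in the DMSO libraries and 8.735, 8.53 and 9.035 CPM with KL001, without overlap (log2 change 0.57, SE 0.086, adjusted p = 4.32e-05), and Ifit2 had a log2 change of 0.18 (adjusted p = 0.0491). Ifit2 lost its call whichever of the 6 libraries was left out (adjusted p 0.0517 to 0.195), with RLE scaling, with DESeq2 and with the replicate block, and the list count was then 1. Reads shared among the Ifit copies may have been divided in a way the sources do not state. Of 17 NF-kB, cytokine and chemokine genes tested out of 21, Nfkb2 and Cxcl5 fell, at -0.14 (adjusted p = 0.00517) and -0.20 (adjusted p = 0.0452). Cxcl5 lost its call without KL001 replicate 1, 2 or 3 or DMSO replicate 1 or 3 (adjusted p 0.0672 to 0.252) and Nfkb2 without DMSO replicate 2 (adjusted p = 0.0560) or with no filter on low counts, and in each of these cases the list count was 1.

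Of 17 genes of retinoic acid and xenobiotic metabolism tested out of 22, 3 rose. Cyp26b1, the enzyme that clears retinoic acid, was at 3.73, 3.38 and 3.91 CPM in the DMSO libraries and 6.86, 6.37 and 6.16 CPM with KL001. Each KL001 library was well above each DMSO library (log2 change 0.82, SE 0.11, adjusted p = 6.95e-06). Cyp1b1, a monooxygenase inducible through the aryl hydrocarbon receptor, was at 54.03, 55.9 and 56.3 CPM in the DMSO libraries and 72.65, 75.9 and 70.9 CPM with KL001 (log2 change 0.40, SE 0.048, adjusted p = 1.25e-06). Xdh, xanthine dehydrogenase, had a log2 change of 0.46 (adjusted p = 0.00937) and lost its call without KL001 replicate 2 or DMSO replicate 3 (adjusted p 0.0728 to 0.0765). Crabp1, a retinoic acid binding protein gene, was at 386, 363 and 374 CPM in the DMSO libraries and 323, 314 and 347 CPM with KL001, lower in every KL001 library without passing (log2 change -0.19, SE 0.055, adjusted p = 0.0537). It passed in 8 of 13 alternatives, among them RLE scaling (adjusted p = 0.0404), DESeq2 (adjusted p = 0.0112) and the fit without KL001 replicate 3 (adjusted p = 0.0285). Ahr and Nqo1 did not pass (log2 change -0.12 with adjusted p = 0.630 and 0.0205 with adjusted p = 0.936). The list count was 5 (3 higher and 2 lower) with DESeq2, with no filter and in the fit on the compared groups, and 6 (4 higher and 2 lower) with the length and GC correction.

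None of 26 genes of DNA replication and mitosis passed the test, and the list median was -0.003. Mki67, a marker of cycling cells, was at 133.5, 130 and 130.5 CPM in the DMSO libraries and 131, 147 and 123 CPM with KL001, and Mcm5, a helicase subunit, at 88.7, 84.1 and 85.9 CPM in the DMSO libraries and 86.5, 85.5 and 86.6 CPM with KL001. The libraries overlapped in both genes. The largest log2 changes of the list were 0.10 (adjusted p = 0.264) for E2f1 and -0.10 (adjusted p = 0.1555) for Rrm2.

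**Figure D3:**
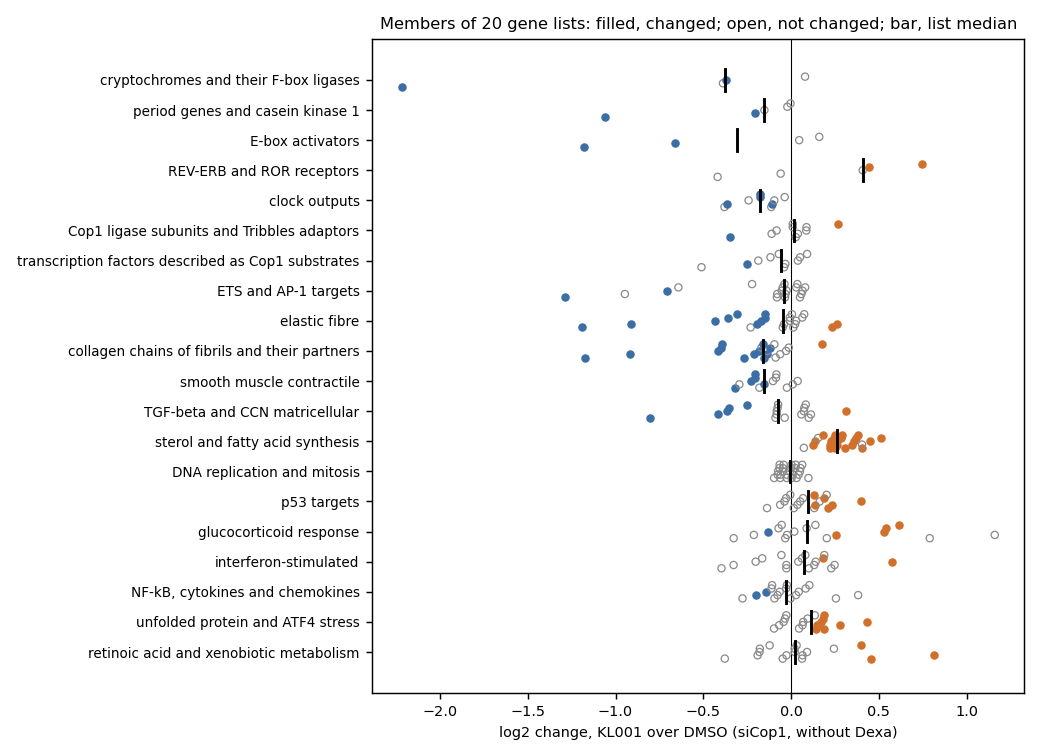
Each point is a tested member of a list, placed by its log2 change with KL001; filled points passed the test (orange higher, blue lower), open points did not, and black bars are list medians. The sterol list lies almost wholly to the right with 21 filled points, the collagen and elastic fibre lists have 12 and 9 filled points to the left, and the replication list has none.

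Outside the lists, and among genes with a mean of at least 1 CPM and groups that did not overlap, the largest rises were mostly at low levels. Msln, mesothelin, a surface glycoprotein of mesothelium, was at 14.4, 16.3 and 17.8 CPM in the DMSO libraries and 23.5, 24.7 and 27.4 CPM with KL001. Its log2 change was 0.64 (SE 0.081, adjusted p = 4.09e-06). The rule took only genes whose groups were apart, so separation is no added evidence for the genes it named. Sh2d6, an adaptor protein gene, was at 2.42, 2.76 and 2.90 CPM in the DMSO libraries and 3.315, 4.71 and 4.555 CPM with KL001 (log2 change 0.64, SE 0.13, adjusted p = 0.00204). Serpinb9b, a protease inhibitor with close copies among which reads may have been divided, was at 2.76, 2.565 and 2.50 CPM in the DMSO libraries and 4.37, 4.17 and 3.88 CPM with KL001 (log2 change 0.67, SE 0.16, adjusted p = 0.00898) and lost its call without KL001 replicate 1 (adjusted p = 0.0514). Ankrd55, Crocc2, Ostn and Pdzd7 had log2 changes of 0.75 (adjusted p = 0.0446), 0.70 (adjusted p = 0.0399), 0.64 (adjusted p = 0.0432) and 0.62 (adjusted p = 0.0352), with a DMSO mean between 0.77 and 1.62 CPM. These calls were near the threshold. Ankrd55 lost its call without KL001 replicate 1 or 3 or DMSO replicate 1, 2 or 3 (adjusted p 0.0944 to 0.218), Crocc2 without KL001 replicate 1, 2 or 3 or DMSO replicate 2 or 3 (adjusted p 0.0859 to 0.229) and Pdzd7 without KL001 replicate 1, 2 or 3 or DMSO replicate 1 or 2 (adjusted p 0.0546 to 0.180). Ostn lost its call without KL001 replicate 1 or 2 or DMSO replicate 1 or 2 (adjusted p 0.110 to 0.344). With DESeq2, Ankrd55, Crocc2, Ostn and Pdzd7 did not pass. Ankrd55 and Ostn also lost the call with no filter on low counts (adjusted p = 0.129 and 0.0634). The same held with the replicate block (adjusted p = 0.0556 and 0.0554) and in the fit on the compared groups (adjusted p = 0.0735 and 0.0825).

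Of the 12 largest falls by the same rule, 6 were outside the lists fixed with the rule. Pcdh10, a protocadherin of the cell surface, was at 9.54, 9.445 and 10.2 CPM in the DMSO libraries and 4.64, 4.94 and 4.93 CPM with KL001. Its KL001 libraries were close to each other and far below the DMSO libraries (log2 change -1.01, SE 0.085, adjusted p = 2.5e-09). Fmod, fibromodulin, a proteoglycan that binds collagen fibrils, was at 24.1, 24.5 and 24.99 CPM in the DMSO libraries and 12.5, 13.01 and 12.9 CPM with KL001 (log2 change -0.94, SE 0.055, adjusted p = 1.77e-12). Tenm3, a teneurin adhesion protein, was at 1.79, 1.59 and 1.89 CPM in the DMSO libraries and 0.741, 0.927 and 0.784 CPM with KL001 (log2 change -1.11, SE 0.25, adjusted p = 0.00599). The rule required groups without overlap, so the separation of these 3 genes was fixed by the choice. Plekha7, Krtap1-5 and Slc26a7 fell at -0.95 (adjusted p = 0.00712), -0.95 (adjusted p = 0.00807) and -0.91 (adjusted p = 0.00990), each at no more than 1.86 CPM in any library. Plekha7 lost its call without KL001 replicate 1 or DMSO replicate 2 (adjusted p 0.0661 to 0.164), Krtap1-5 without KL001 replicate 2 (adjusted p = 0.0894) and Slc26a7 without KL001 replicate 1 or DMSO replicate 3 (adjusted p 0.0548 to 0.0563).

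Whether KL001 acted differently once Cop1 was depleted was tested as an interaction against the siCTRL libraries without Dexa, which share no library with the comparison. No gene passed in the main edgeR fit (0% of 14772, with 982 genes at an unadjusted p under 0.05). DESeq2 gave 15 genes (674 unadjusted). The edgeR fit with the length and GC correction gave 27 and that without the filter 61. Leaving out siCTRL KL001 replicate 2 gave 5 genes and leaving out replicate 3 of that group gave 2. In siCTRL cells KL001 changed 994 genes (6.73%), a count that was 225 in the fit on the compared groups, 1583 with the length and GC correction and 657 without siCTRL DMSO replicate 3. The 375 genes changed in both were 62.1% of the 604 and 37.7% of the 994. Of the 604, 588 (97.4%) had the same sign in siCTRL cells, and the median ratio of the log2 change in siCTRL to that in siCop1 cells was 0.793. Over these 604 genes, chosen by the siCop1 values, Pearson's r of the changes was 0.809 and Spearman's rho 0.887, given as a description, since genes are not independent replicates. Over all 14772 genes tested Pearson's r was 0.333. The choice of the 604 favours genes with large siCop1 changes, so the median ratio cannot show a weaker effect in siCTRL cells. Heart muscle markers summed to 19.6 to 63.1 CPM in the siCTRL DMSO libraries and to 3.61, 87.7 and 3.56 CPM in siCTRL KL001 replicates 1, 2 and 3, and their part in these values was not tested.

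Pcdh20, Hmga2, Spon2, Srm, Mmp3 and Dkk2 had the smallest interaction p-values, and Mmp13 and Eln are given for their large terms. Pcdh20, a protocadherin, was at 43, 43.65 and 45.2 CPM in the DMSO libraries and 27.65, 28.3 and 26.9 CPM with KL001 in siCop1 cells, without overlap. Its log2 change was -0.67 there and -0.16 in siCTRL cells (interaction term -0.51, adjusted p = 0.0608). Mmp3 fell by 0.71 after siCop1 and had -0.028 (adjusted p = 0.919) after siCTRL, where it stood at 23.6 to 26.04 CPM with DMSO and 18.1 to 28.6 CPM with KL001 (interaction term -0.68, adjusted p = 0.0608). Mmp13 had -1.29 after siCop1 and 0.79 (adjusted p = 0.304) after siCTRL, at 0.2105 to 1.35 CPM in the siCTRL libraries (interaction adjusted p = 0.248). Eln had -1.19 and -0.56 (interaction adjusted p = 0.106). Hmga2, an architectural chromatin protein and ETS target, had 0.029 and 0.26 (interaction adjusted p = 0.0608). Spon2, a matrix protein, had -0.56 and -0.22, Srm, spermidine synthase, had -0.22 and 0.0595, and Dkk2, a secreted Wnt modulator, had -0.42 and -0.81 (interaction adjusted p = 0.0608, 0.0608 and 0.0705). None of these differences passed the test in the main fit. Whether these genes were among those that passed in other settings was not examined.

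The core clock genes named here changed in the same direction after siCTRL. Cry1 changed by -2.22 after siCop1 and -1.97 after siCTRL, an interaction term of -0.25 with a 95% confidence interval, unadjusted for the number of genes, of -0.47 to -0.028 and an adjusted p of 0.709. Per2 changed by -1.06 and -1.27, Arntl by -0.66 and -0.63, and Nr1d1 by 0.75 and 0.66. Of the outputs, Tef changed by -0.11 after siCop1 and -0.30 after siCTRL, and Dbp by -0.36 and -0.65. The interaction did not pass for either (adjusted p = 0.106 and 0.516). In the sterol list 19 of 24 genes rose after siCTRL and 21 after siCop1. In the replication list 10 of 26 rose after siCTRL and none after siCop1, and no member passed the interaction test. The siCTRL counts of both lists come from the main fit alone. Over all genes tested, the siCTRL count was 994 in that fit and 225 in the fit on the compared groups. The siCop1 counts were 604 and 933. Rrm2, a ribonucleotide reductase subunit, had -0.10 after siCop1 and 0.14 after siCTRL, with an interaction adjusted p of 0.106.

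With Dexa, which was added in 6 further siCop1 libraries, KL001 changed 807 genes (5.46%). That count was 1426 in the fit on the compared groups, 504 without KL001 replicate 3 with Dexa and 509 without DMSO replicate 1 with Dexa. In the latter library squamous epithelial markers summed to 74.0 CPM, against 13.2 to 29.0 CPM in the other 5 with Dexa, and their part in these values was not tested. The 393 genes changed both without and with Dexa were 65.1% of the 604 and 48.7% of the 807, and 391 of them moved the same way. The interaction of KL001 with Dexa passed for 10 genes, 0.0677% of those tested. It passed for 5 with RLE scaling, 14 with DESeq2, 23 in the fit on the compared groups, 23 with the length and GC correction and 43 with no filter. It passed for 7 without DMSO replicate 2 with Dexa and for 1 to 4 without any other single library. Ctgf had the smallest adjusted p: it fell by 0.42 without Dexa and had a log2 change of 0.0069 (adjusted p = 0.956) with Dexa (interaction term 0.42, adjusted p = 5.22e-05). Postn fell by 0.81 without Dexa and by 0.47 with it (interaction adjusted p = 0.0446). Nfil3 fell by 0.18 without Dexa and had 0.10 (adjusted p = 0.0636) with it (interaction adjusted p = 0.0192). Eln changed by -1.19 and -1.24, Insig1 by 0.40 and 0.42 and Cry1 by -2.22 and -1.78, and their interaction adjusted p-values were 1, 1 and 0.186. Postn, Nfil3 and the other 7 genes besides Ctgf lost the call under 6 or more of 19 alternatives, whereas Ctgf kept it in all 19.

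**Figure D4:**
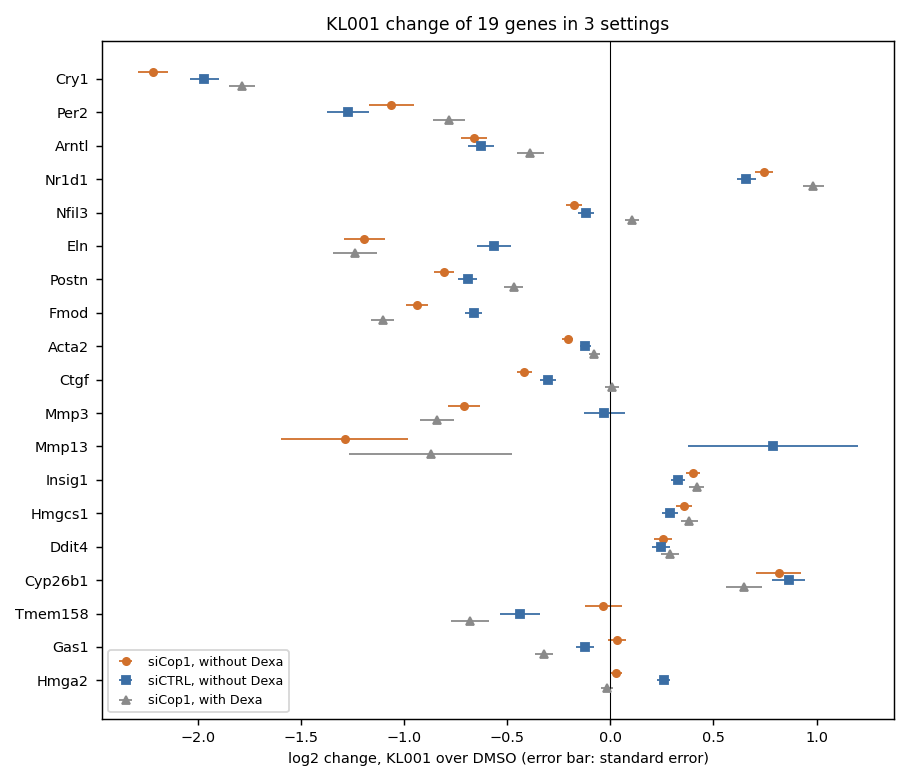
Log2 changes with KL001 (horizontal, ± standard error) of 19 genes in siCop1 cells without Dexa (orange circles), siCTRL cells without Dexa (blue squares) and siCop1 cells with Dexa (grey triangles). Cry1, Insig1 and Cyp26b1 lie on the same side of 0 in all 3, Mmp3 is near 0 in siCTRL cells, and Ctgf is near 0 with Dexa.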

How the data were processed

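mRNA of mouse embryonic fibroblasts was sequenced in 24 libraries (8 groups of 3), of which 6 form the comparison. The authors deposited raw counts per gene symbol and library (47480 genes, 28837 with a count). Per the submitters' processing notes, the tools included STAR 2.4.5a and featureCounts of Subread 1.4.6-p3, with builds GRCm38 and mm10, and the role of each is not stated. The setting for strand and the treatment of reads shared by paralogs are not stated in those notes or in the labels, so genes with close copies, overlapping genes and antisense genes are uncertain. The deposited normalized table was not used.

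In R 4.3.3, 14772 genes passed filterByExpr (8 groups, a count minimum of 10 and a total minimum of 15). After TMM scaling, edgeR 4.0.16 fitted a robust quasi-likelihood model with a mean for each group to the 24 libraries. Comparisons were KL001 against DMSO in siCop1 cells without Dexa, the same in siCTRL cells and in siCop1 cells with Dexa, and both interactions. Standard errors come from the unshrunken log2 change and its F statistic. CPM uses TMM-adjusted totals, and SDs are over 3 libraries. No 2 libraries were identical, and replicates within the 6 differed by more than sampling noise (chi-square per degree of freedom 1.86 to 4.03). The siCTRL KL001 libraries without Dexa, which also enter the fit, differed more (4.195 to 9.266). Some pairs of siCTRL DMSO libraries did too, at 1.783 to 5.507 without Dexa and 1.962 to 5.953 with Dexa. The common biological coefficient of variation was 3.71%, and 1 CPM stands for 24.8 to 26.8 counts in the 6 libraries. The script was tested on simulated data.

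Named genes were all members of the clock, Cop1 ligase and Cop1 substrate lists, the 12 higher and 12 lower genes with the largest changes (adjusted p below 0.05, at least 1 CPM, groups apart), up to 3 genes per sign and interaction, and up to 4 members with the smallest adjusted p of each other list, marker lists included. Some genes that this rule names are not reported here. Further list members, and the interaction genes short of the threshold, were named after their values were seen. The comparison, lists and rule were chosen with earlier results of these data known. Alternatives were RLE scaling, no filter, DESeq2 1.42.0, a replicate block, a fit on the compared groups, offsets for transcript length and GC content (GENCODE transcripts, natural splines with 4 degrees of freedom, 96.8% of genes) and each library left out in turn. No batch is given per library in the labels.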

Additional observations from a re-analysis of the deposited data

Results flagged for a closer look

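In siCop1 cells the effect of KL001 on 10 genes differed between the absence and the presence of Dexa, by the interaction term of edgeR's quasi-likelihood test over all 14772 genes. The term is the log2 change with Dexa minus that without. For 7 genes it was positive, 6 of which are described. Ctgf, a matricellular gene, had a term of 0.42 (adjusted p = 5.22e-05), with 186 ± 5.31 CPM under DMSO and 140 ± 4.80 CPM under KL001 without Dexa (SD, n = 3) and 927 ± 15.4 and 931 ± 29.5 CPM with Dexa. Fzd4, a Wnt receptor gene, had 0.455 (log2 change -0.23 without and 0.22 with Dexa), and Cdo1, cysteine dioxygenase, had 0.41 (-0.24 and 0.17). Postn had 0.34 (-0.81 and -0.47), Adamts1, a matrix protease, had 0.31 (-0.23 and 0.075), and Nfil3 had 0.28 (-0.18 and 0.10, without Dexa 41.7 ± 0.558 and 36.9 ± 1.45 CPM).

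For 3 genes the term was negative. Tmem158, a transmembrane protein gene, had -0.65, with log2 changes of -0.033 without and -0.68 with Dexa. Gas1, a growth arrest gene of the cell surface, had -0.355 (0.034 and -0.32), and Sned1, a matrix protein gene, had -0.32 (0.18 and -0.14). Ctgf kept its call in all 19 alternatives, Cdo1 lost it in 6, Gas1 in 8, Nfil3 in 10, Postn and Tmem158 in 13, and Adamts1, Fzd4 and Sned1 in 14.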

How the results depend on the processing

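For KL001 in siCop1 cells without Dexa the count of 604 stayed within 1.5 times under RLE scaling, no filter and DESeq2, and when each library was left out it was 426 to 463. RLE scaling gave 605 genes, no filter 774 and DESeq2 582, of which 594, 521 and 538 were among the 604. The count was 933 in the fit on the groups compared, 958 with length and GC offsets and 959 with the block and those offsets. Same-numbered libraries correlated at 0.24, 0.074 and -0.042 in their deviations from the group means, so the numbers were not taken to pair them, and not every library correlated best with its own number. A replicate block gave 598 genes, 574 of them among the 604. The siCop1 by KL001 interaction gave 61 genes with no filter, 15 with DESeq2, 27 with length and GC offsets and 30 with block and offsets (leaving out a library, 0 to 5). The KL001 by Dexa interaction gave 5 with RLE scaling, 5 with the block, 43 with no filter, 23 in the fit on the groups compared, 23 with offsets and 24 with block and offsets (1 to 7). KL001 in siCTRL cells gave 225 in the fit on the groups compared, 1583 with offsets and 1575 with block and offsets (657 to 1181). KL001 in siCop1 cells with Dexa gave 1426 in the fit on the groups compared (504 to 614). Where a library is left out the remaining pair of its group is assumed to vary like the other groups. Of 123 named genes that changed, 87 kept the call in all alternatives run on the main comparison, and none of 231 reversed. A further 16 named genes that had not passed did so in some alternative: Per3, Crabp1, Thy1, Acta1, Actc1, Krt8, Fbn2, Spry4, Etv1, Mmp9, Stat2, Vcam1, Acaca, Srebf1, Pdia4 and Tgfbr2, each in its main direction. RLE scaling moved the median log2 change of all genes by 0.0023 and DESeq2's size factors by 0.0022. The cause of these shifts was not tested. Depth limits genes below about 1 CPM.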

Other observations

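Further matrix lists were written after values of these data had been seen, and their counts are a description only. Of 11 tested small leucine-rich proteoglycan genes, whose products coat collagen fibrils, 6 fell and none rose, with a median log2 change of -0.25. Aspn, asporin, was at 923, 896 and 957.5 CPM in the DMSO libraries and 637, 718 and 663 CPM with KL001 (log2 change -0.46, SE 0.069, adjusted p = 0.000330). Omd, osteomodulin, was at 87.1, 89.98 and 94.2 CPM in the DMSO libraries and 64.15, 68.4 and 63.55 CPM with KL001 (log2 change -0.47, SE 0.048, adjusted p = 1.05e-07). Both separated fully. Prelp, Ogn and Bgn also fell, at log2 changes of -0.61, -0.20 and -0.18, beside Fmod. Of 18 tested genes for collagen folding, hydroxylation and processing, 10 fell and none rose, by small amounts: Sparc was at 5159, 5093 and 5178 CPM in the DMSO libraries and 4522, 4427 and 4577 CPM with KL001 (log2 change -0.19, SE 0.024, adjusted p = 3.21e-06), Serpinh1, the collagen chaperone HSP47, at 2600, 2521 and 2549 CPM in the DMSO libraries and 2369, 2276 and 2377 CPM with KL001 (log2 change -0.13, SE 0.025, adjusted p = 0.00138), and P4ha3, a prolyl hydroxylase, had the largest change at -0.28.

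Secreted Wnt ligands and modulators fell in 5 of 17 tested cases and rose in none, beside a fall in 2.32% of all genes tested. Sfrp2, a secreted frizzled-related protein, was at 665, 659.5 and 673 CPM in the DMSO libraries and 508, 484 and 512 CPM with KL001 (log2 change -0.41, SE 0.033, adjusted p = 1.4e-09). Rspo2, an R-spondin that amplifies Wnt signals, was at 428, 416 and 419 CPM in the DMSO libraries and 339, 333 and 337 CPM with KL001 (log2 change -0.32, SE 0.028, adjusted p = 4.16e-09). Wnt5b, a ligand, was at 19.3, 20.5 and 21.9 CPM in the DMSO libraries and 13.3, 13.1 and 12.7 CPM with KL001 (log2 change -0.66, SE 0.071, adjusted p = 2.18e-07). The groups did not overlap in these 3 genes. Dkk2 and Frzb fell by 0.42 and 0.81, and Frzb lost its call without KL001 replicate 1 or 2 or DMSO replicate 2 or 3 (adjusted p 0.0678 to 0.173). The same 3 lists gave 5, 7 and 5 falls in siCTRL cells without Dexa, for proteoglycans, collagen processing and Wnt genes in that order.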
